A study of Mus musculus with 69 samples.

Results

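Dbp, Tef, Hlf and Nfil3 are 4 of the 24523 gene symbols with counts in kidney RNASeq libraries of lupus-prone NZB/W F1 mice. They were chosen by symbol, as the PAR bZIP transcription factors Dbp, Tef and Hlf and the related repressor Nfil3, to compare the time and size of their daily variation across diagnosis and time. Original libraries came from 30 young mice aged 12 weeks, 27 nephritic mice aged 30 to 45 weeks with proteinuria, and 8 remission mice aged 36 to 50 weeks. Remission mice had been nephritic and received cyclophosphamide (50 mg/kg) with 6 doses of CTLA4Ig (200 µg) and anti-CD40L (250 µg), both blockers of T cell costimulation, over 2 weeks, and were harvested 8 weeks later. Zeitgeber time 0 (ZT0) is lights on and ZT12 lights off. Young mice numbered 7, 4, 4, 7, 4 and 4 at ZT0, 4, 8, 12, 16 and 20, nephritic mice 7, 4, 4, 6, 3 and 3, and remission mice 4 at ZT0 and 4 at ZT12. All were whole perfused kidneys of 1 strain. Young and nephritic mice differ in age as well as disease, so the effects of age and nephritis cannot be told apart. The labels give no sequencing run for the remission libraries, and the part of the run in their comparisons was not tested.

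The PAR bZIP factors are outputs of the circadian clock. Dbp, Tef and Hlf bind and activate genes that carry a D-box, and Nfil3 (also called E4BP4) binds the same element and represses them, so the daily ratio of activator to repressor sets the drive on these genes. The clock activators CLOCK and BMAL1 drive Dbp through E-boxes, and the REV-ERB nuclear receptors repress Nfil3 through elements called ROREs, which places the activators and the repressor on opposite arms of the clock. In kidney and liver these factors are known for the daily expression of genes of drug and lipid metabolism.

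Total counts were 25257530 to 35744843 per library in young, 26596500 to 48075977 in nephritic and 13311278 to 21849912 in remission mice. The least counted member library held 63 reads, for Dbp, and no member was at 0 in any library. Values are CPM (counts scaled to a common library size with TMM factors), and tests are edgeR quasi-likelihood tests on counts with Benjamini-Hochberg adjustment over all genes at an adjusted p of 0.05. The kidney markers Lrp2, Slc34a1 and Umod were read in every library. In the test of level 62.1% of all genes passed, 33.9% being lower in nephritic mice. There 9 of 10 leukocyte markers and 4 of 4 injury markers were higher in nephritic mice. Of 8 tubule and podocyte markers 3 were lower and 2 higher, and of 5 adrenal markers 4 were lower. In the test of a different time course, which 6.27% of all genes passed, 4 leukocyte, 3 adrenal and 3 tubule and podocyte markers passed. At ZT12, where 50.0% of all genes differed, all 5 adrenal markers were lower. Summed leukocyte markers ranged from 66.2 to 136 CPM in young and 107 to 739 CPM in nephritic mice, and summed tubule and podocyte markers from 11445 to 20044 and from 4670 to 16711 CPM. Ms4a1 and S100a8 were at 0 in 5 young libraries each, and summed adrenal markers reached 1030 CPM in a young and 619 CPM in a nephritic library. The part of these lists in the results on the members was not tested, apart from the relations with Lcn2 and Ptprc given at the end.

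Before the results, 3 libraries stand apart. The nephritic ZT8 library RX10RU lay far from the other 3 of its group. The remission ZT12 library s9 held values near those of ZT0. The repeat library of the nephritic ZT12 mouse RX11RU was closest to another mouse, RX11LU at ZT4 (r = 0.994 across genes), and less close to its own original (r = 0.969), while the other 3 repeats were each closest to their own original. In that repeat Dbp was 55.5 CPM against 22.8 CPM in the original and Nfil3 8.26 against 32.8 CPM, while the other 3 repeats lay within 0.39 log2 units of their originals for every member. Except where repeats are named, only original libraries enter the values below. Many results that rest on these 3 libraries are given with and without them. The levels per kb, the ratios to Nfil3 and the relations with Lcn2 are given only with RX10RU included.

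The 4 genes lie on 4 chromosomes. In the GENCODE annotation of GRCm38, Dbp is at chr7:45705088-45710203 on the plus strand, Tef at chr15:81802421-81826863 on the plus strand, Hlf at chr11:90336536-90390895 on the minus strand and Nfil3 at chr13:52967209-52981073 on the minus strand. RefSeq promoter windows of GRCm38.p6, 250 bases before to 50 after a start, were matched by symbol for all 4 genes, with 2 windows for Tef. They were searched on both strands for the E-box CACGTG, the D-boxes TTATGTAA and TTACGTAA, the RORE core AGGTCA and the cAMP response element (CRE) TGACGTCA. Every match is shown, 30 bases each on the strand of the gene, because these elements separate the arms of the clock described above. Capitals mark the match, and no 2 matches overlap.

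Tef, upstream start, E-box, chr15:81802534-81802563 (plus strand, within an annotated exon): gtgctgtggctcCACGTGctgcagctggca
Tef, downstream start, E-box, chr15:81811264-81811293 (plus strand): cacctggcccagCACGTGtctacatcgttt
Hlf, CRE, chr11:90390908-90390937 (minus strand): ggtgcgggcccTGACGTCActcttgtcagg
Nfil3, RORE core on the opposite strand, chr13:52981034-52981063 (minus strand, within an annotated exon): ggcgctcggaacTGACCTactaacacacat

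Both Tef windows held an E-box, the Hlf window a CRE, the Nfil3 window a RORE core and the Dbp window none of the 5. Of all 32851 windows, 7.15% held the E-box, 16.3% the RORE core, 1.79% the CRE, 0.938% TTATGTAA and 0.119% TTACGTAA. No member window held a D-box, which says only that these letters are not in these windows.

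In young kidneys the 3 activators were highest in the late light phase and Nfil3 in the dark phase. Over the 6 time points 39.8% of 16521 genes varied in young mice, and all 4 members did, with an adjusted p of 8.9e-20 for Dbp, 2.3e-16 for Tef, 7.2e-08 for Hlf and 2.3e-14 for Nfil3. Dbp, whose swing was the largest of the 4, had values of 230.8, 229.5, 218 and 207 CPM in the 4 young mice at ZT8. At ZT0 the 7 young mice spanned 2.33 to 5.61 CPM (median 3.35), below every young mouse at ZT4, 8, 12 and 16. At ZT12 Dbp was 64.1 to 129 CPM (median 73.0), at ZT16 10.997, 13.5, 10.7 and 14.4 CPM and at ZT20 4.59, 6.38, 4.35 and 5.92 CPM. The 4 mice at ZT4 lay at 49.2, 49.1, 48.8 and 51.8 CPM.

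Tef, which shares the D-box with Dbp, was 547 to 600 CPM in the 4 young mice at ZT8 and 509 to 567 CPM (median 531) in the 7 at ZT12, so those time points overlapped. Its lowest values were at ZT0, 127 to 209.8 CPM (median 169). Hlf moved least, from 106 to 153 CPM (median 124) at ZT0 to 201, 226, 227 and 249.98 CPM at ZT8, and at ZT12 it was 190.4 to 222 CPM (median 199). Nfil3 ran the other way, with 5.09, 4.9996, 9.50 and 5.75 CPM at ZT8 and 36.1, 38.5, 48.5 and 49.2 CPM at ZT16. From ZT16 to ZT0 Nfil3 stayed between 36.1 and 54.5 CPM in every young mouse, and these 3 time points overlapped.

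Compared per kilobase of exon, the members had different shares of the day. At ZT8 in young mice the mean level was 73.9 ± 3.77 CPM per kb for Dbp and 73.6 ± 3.15 for Tef (SD, n = 4), which did not differ beyond their spread, against 33.8 ± 2.98 for Hlf and 3.13 ± 1.06 for Nfil3. At ZT0 the level per kb was 21.7 ± 3.28 for Tef, 21.0 ± 1.86 for Nfil3 and 19.3 ± 2.32 for Hlf (SD, n = 7), neighbours within their spread, and 1.21 ± 0.415 for Dbp. Dbp thus ran from the lowest of the 4 levels per kb at ZT0 to a level shared with Tef at ZT8. In nephritic mice at ZT8 the level per kb was 32.2 ± 19.7 for Dbp, 45.6 ± 18.8 for Tef, 21.98 ± 4.99 for Hlf and 4.27 ± 2.27 for Nfil3 (SD, n = 4).

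In nephritic kidneys Dbp, Tef and Nfil3 still varied over the day, and Hlf did not pass. Over the day 21.6% of 16872 genes varied in nephritic mice, with an adjusted p of 6.4e-05 for Dbp, 0.025 for Tef, 7.2e-05 for Nfil3 and 0.84 for Hlf. For Tef the call ended without either of 2 ZT8 mice (adjusted p of 0.052 without RX7LU and 0.055 without RX12RL) and with a 24 h cosine in place of separate time points (adjusted p = 0.099). At ZT8 nephritic Dbp was 128, 108, 10.04 and 139 CPM, the third value being RX10RU. The other 3 nephritic values lay above every nephritic mouse of the other time points and below all 4 young mice. In the same library Tef was 138 CPM against 413.5, 429 and 454 CPM, and Nfil3 was 15.3 CPM against 5.43, 5.74 and 8.12 CPM.

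**Figure D1:**
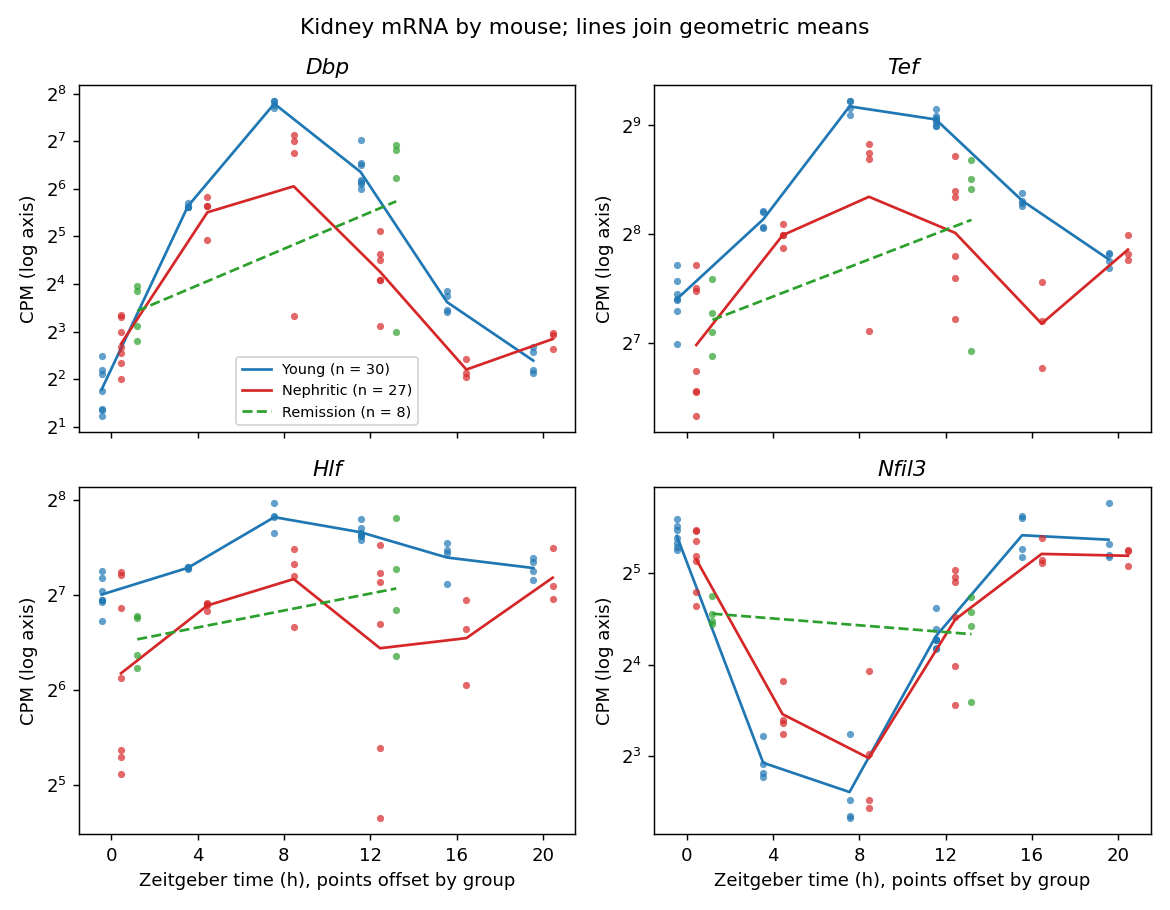
CPM (log axis) of each member against Zeitgeber time in hours, 1 point per mouse, with lines through the geometric means of young, nephritic and remission mice. Young Dbp rises from 2.33 to 5.61 CPM at ZT0 to 207 to 230.8 CPM at ZT8, Nfil3 runs the other way, and the nephritic ZT8 library RX10RU and the remission ZT12 library s9 lie below their groups for Dbp and Tef.

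The whole time course differed between nephritic and young mice for Dbp. In the test of the diagnosis by time terms 6.27% of 17521 genes passed, and Dbp did (adjusted p = 0.00016), whereas Tef (0.060), Nfil3 (0.19) and Hlf (0.54) did not. Without RX10RU and RX11RU the adjusted p of Tef was 0.019, and in DESeq2 it was 0.018, so Tef lay on the threshold. In the same test restricted to a 24 h cosine and sine, which 0.691% of genes passed, Dbp again passed (adjusted p = 0.00060) and the other 3 members did not.

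The difference in Dbp changed sign over the day. At ZT0 the 7 nephritic mice held 3.99 to 10.2 CPM (median 6.43) against 2.33 to 5.61 CPM (median 3.35) in young mice, groups that overlapped, with a log2 difference of 0.95 (SE 0.30, adjusted p = 0.0093), where 39.5% of genes passed. With Set 2 alone, the larger of the 2 sequencing sets inferred from title prefixes, it was 0.94 with an adjusted p of 0.076. At ZT4, where 30.3% of genes passed, nephritic Dbp was 56.5, 49.7, 49.7 and 30.5 CPM and did not pass (log2 difference -0.13, SE 0.35). At ZT8, where 3.66% of genes passed, the log2 difference was -1.203 (SE 0.36, adjusted p = 0.045). It did not hold without RX10RU (-0.79, adjusted p = 0.21) or in 22 more of the 57 fits that each left out a mouse.

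At ZT12 the nephritic mice held 8.71 to 34.7 CPM of Dbp (median 19.9), all below the 64.1 to 129 CPM of young mice. The log2 difference was -2.03 (SE 0.29, adjusted p = 2.5e-07), at a time point where 50.0% of genes passed. At ZT16 the 3 nephritic mice held 4.37, 5.40 and 4.12 CPM against 10.7 to 14.4 CPM in young mice, again with no overlap. The log2 difference was -1.42 (SE 0.42, adjusted p = 0.014), where 17.7% of genes passed, and without RX9RU it was -1.31 (adjusted p = 0.065). At ZT20, where 5.48% of genes passed, Dbp did not pass (0.43, SE 0.41), although the 3 nephritic values of 7.62, 7.79 and 6.22 CPM lay among or above the young ones. Dbp was thus higher in nephritic mice at ZT0 and lower at ZT12 and ZT16.

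**Figure D2:**
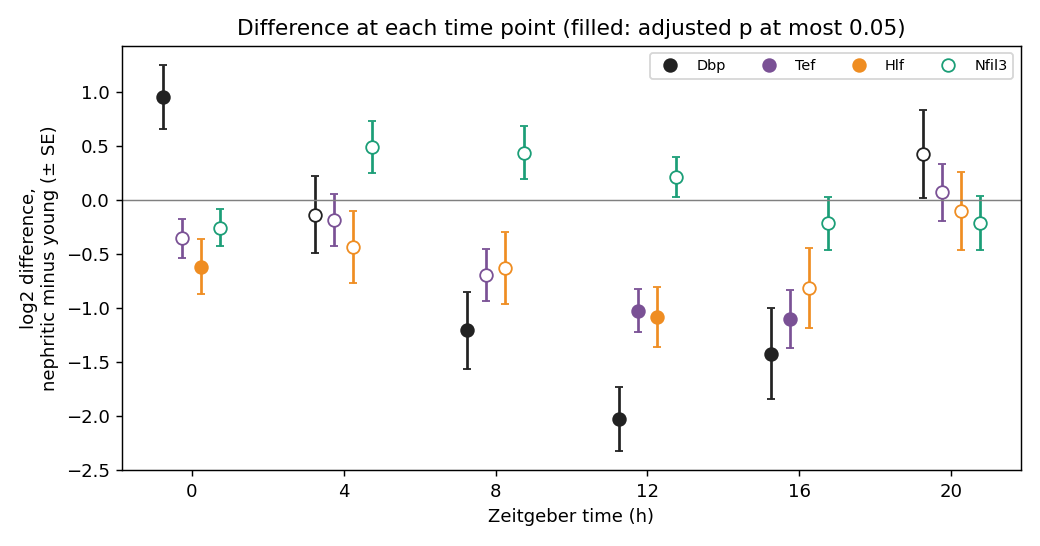
Log2 difference, nephritic minus young, with its standard error, for each member at each Zeitgeber time (h), filled where the adjusted p is at most 0.05. Dbp lies at 0.95 at ZT0 and at -2.03 at ZT12, and no point of Nfil3 is filled.

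Tef was lower in nephritic mice at ZT12 and ZT16, and Hlf at ZT12. At ZT12 Tef was 149 to 421 CPM (median 274) against 509 to 567 CPM in young mice, with no overlap and a log2 difference of -1.02 (SE 0.20, adjusted p = 3.5e-05). At ZT16 it was 188, 109 and 147 CPM against 307, 333, 317 and 311 CPM, a log2 difference of -1.10 (SE 0.27, adjusted p = 0.0028), and without RX7LL -0.90 (adjusted p = 0.056). Tef did not pass at ZT0, 4, 8 or 20. Hlf at ZT12 was 25.2 to 184 CPM (median 122), wholly below the 190.4 to 222 CPM of young mice, a log2 difference of -1.08 (SE 0.28, adjusted p = 0.0011). The 2 lowest of these mice, HIL5RU at 25.2 and HIL5LL at 42.1 CPM, were those of Set 1, and with Set 2 alone the Hlf difference was -0.47 (adjusted p = 0.16). At ZT16 the Hlf difference of -0.81 (SE 0.37) did not pass (adjusted p = 0.11), but with Set 2 alone it did (-0.78, adjusted p = 0.036). Hlf did not pass at ZT4, 8 or 20.

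At ZT0 Hlf spanned 34.8 to 152 CPM (median 69.9) in nephritic and 106 to 153 CPM in young mice. Its log2 difference of -0.62 (SE 0.25, adjusted p = 0.047) failed to pass in 43 of the 57 fits that left out a mouse and under 5 other settings. Averaged over the day, 62.1% of genes differed in level, 33.9% being lower in nephritic mice, so a change of level is common here. Tef was lower by a log2 difference of -0.56 (SE 0.11, adjusted p = 8.2e-06), Hlf by -0.65 (SE 0.13, adjusted p = 2.0e-05) and Dbp by -0.57 (SE 0.22, adjusted p = 0.021), against a median over all genes of -0.026. The Dbp call was lost without HIL5LL or RX8RU (adjusted p of 0.051 each). In whole kidney, fewer cells that express a gene and less RNA per cell cannot be told apart.

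Nfil3 was not shown to differ in level. Averaged over the day its log2 difference was 0.06 (SE 0.09, adjusted p = 0.62), and it passed at no time point. At ZT12 it was 11.8 to 32.8 CPM (median 26.5) in nephritic and 18.03 to 24.5 CPM (median 19.3) in young mice, so the nephritic range enclosed the young one. The Set 1 mice HIL5RU and HIL5LL were its 2 lowest nephritic values, 11.8 and 15.8 CPM, and with Set 2 alone the difference at ZT12 was 0.60 (adjusted p = 0.034) and at ZT4 0.56 (adjusted p = 0.045). At ZT4 the 4 nephritic mice held 10.3, 9.50, 10.6 and 14.2 CPM of Nfil3, all above the 4 young mice at 9.31, 6.83, 7.04 and 7.53 CPM. In the fit of all mice that difference was 0.49 (SE 0.24, adjusted p = 0.11), and without RX10RU it was 0.54 (adjusted p = 0.048).

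A 24 h cosine fitted to log2 CPM gave the amplitude, from the mean to the peak, and the peak time with 95% intervals. In young mice the amplitude was 3.02 log2 units (2.76 to 3.28) for Dbp, 1.57 (1.33 to 1.82) for Nfil3, 0.89 (0.81 to 0.97) for Tef and 0.35 (0.27 to 0.43) for Hlf. From trough to peak of the curve this is 66.0-fold for Dbp, 8.85-fold for Nfil3, 3.45-fold for Tef and 1.62-fold for Hlf. Dbp peaked at ZT9.01 (8.68 to 9.33), before Tef at ZT10.4 (10.04 to 10.8) by 1.42 h (1.11 to 1.74) in the same mice, and before Hlf at ZT10.6 (9.63 to 11.6) by 1.62 h (0.69 to 2.54). The peak times of Tef and Hlf were not shown to differ (0.19 h, -0.61 to 0.99). Nfil3 peaked at ZT19.1 (18.6 to 19.6).

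In nephritic mice the cosine of Dbp was smaller and earlier. Its amplitude was 2.00 (1.43 to 2.57) and its peak ZT7.15 (6.25 to 8.06), a change of -1.02 log2 units (-1.63 to -0.42) and of -1.85 h (-2.79 to -0.92). Without RX10RU and RX11RU the changes were -0.78 (SE 0.26) and -1.79 h (SE 0.36). Tef had an amplitude of 0.53 (0.20 to 0.86), lower by a difference of -0.36 (-0.69 to -0.03), and without RX10RU and RX11RU that difference was -0.26 (SE 0.16). Its peak at ZT8.91 was earlier by an interval that includes 0 (-1.52 h, -3.81 to 0.78). For Hlf the amplitude interval included 0 (0.12, -0.31 to 0.54), so its peak time was not determined. With Set 2 alone the nephritic Hlf amplitude was 0.29 (SE 0.17), and the difference from young mice was -0.04 (SE 0.18) against -0.23 in all mice. Nfil3 had an amplitude of 1.24 (0.89 to 1.58), a difference of -0.34 (-0.75 to 0.07), and peaked at ZT19.0 (18.2 to 19.9), a difference of -0.07 h (-1.06 to 0.91).

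**Figure D3:**
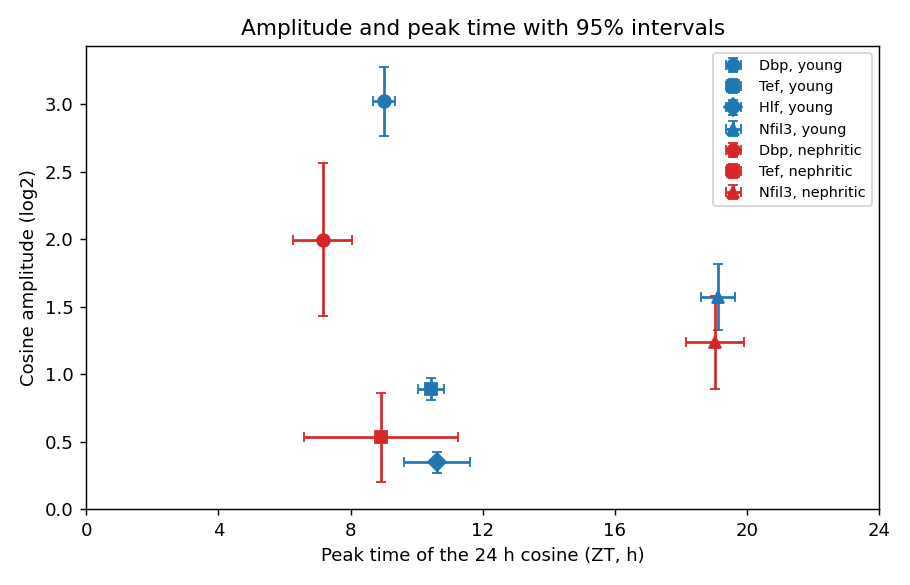
Cosine amplitude (log2 units) against peak time (ZT, h) with 95% intervals for young and nephritic mice, without nephritic Hlf, whose amplitude interval includes 0. Dbp moves from ZT9.01 to ZT7.15 and down. Both points of Nfil3 lie near ZT19, at 1.57 in young and 1.24 in nephritic mice, with overlapping intervals.

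The time from the activator peak to the Nfil3 peak was therefore longer for Dbp in nephritic mice. It was 10.1 h (9.69 to 10.5) in young and 11.9 h (11.2 to 12.5) in nephritic mice, a difference of 1.78 h (1.03 to 2.53), with Dbp and Nfil3 close to exact antiphase in nephritic mice. For Tef the time was 8.69 h (8.12 to 9.25) and 10.1 h (7.85 to 12.4), and the difference of 1.45 h had an interval from -0.84 to 3.74. For Hlf it was 8.50 h (7.46 to 9.54) in young mice. The amplitude of Dbp was 1.92 times that of Nfil3 in young and 1.62 times in nephritic mice, whereas Tef had 0.567 and 0.432 of the Nfil3 amplitude and Hlf 0.221 of it in young mice.

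The ratio of activator to Nfil3 within each mouse joins both sides. In young mice the log2 ratio of Dbp to Nfil3 in CPM ran from -3.60 ± 0.54 at ZT0 (SD, n = 7) to 5.16 ± 0.50 at ZT8 (SD, n = 4), and in nephritic mice from -2.39 ± 0.73 (SD, n = 7) to 3.06 ± 2.46 (SD, n = 4). The nephritic ZT8 mice ranged from -0.60, in RX10RU, to 4.58. Of 18 ratios compared between the groups with a two-sided exact permutation test, adjusted over the 18, 4 passed. At ZT12 Dbp to Nfil3 was 2.04 ± 0.44 in young (n = 7) and -0.24 ± 1.03 in nephritic mice (n = 6), a difference of -2.28 with no overlap (exact permutation, adjusted p = 0.0070). The differences at ZT12 were -1.23 for Tef and -1.40 for Hlf, also with no overlap and the same adjusted p, because all 3 reached the smallest p of the design, 0.0012 unadjusted.

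At ZT0 the ratio of Dbp to Nfil3 was higher in nephritic mice by 1.202 (exact permutation, adjusted p = 0.021), with overlapping groups. With Set 2 alone, 4 mice against 4, the differences at ZT12 were -2.94 for Dbp, -1.35 for Tef and -1.08 for Hlf, each without overlap, and the exact p of each was 0.029, the smallest that 4 against 4 allows (adjusted p = 0.057 over 6 ratios). The ZT0 ratio of Dbp was then 1.07 higher (exact permutation p = 0.086). At ZT4 the groups did not overlap for Tef (-0.67) and Hlf (-0.92), and at ZT16 for all 3 activators, by -1.202 for Dbp, -0.93 for Tef and -0.64 for Hlf. At ZT20 Dbp to Nfil3 was 0.62 higher in nephritic mice, again with no overlap. With 4 against 4 mice at ZT4 and ZT8 and 4 against 3 at ZT16 and ZT20, the adjusted p was 0.086 or more at all these time points. Comparing 4 mice with 3, the exact test cannot go below 0.057. How often the ratios of other gene pairs separate in this way was not tested. In the edgeR tests of single genes, 39.5%, 30.3%, 50.0%, 17.7% and 5.48% of all genes differed at ZT0, ZT4, ZT12, ZT16 and ZT20.

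**Figure D4:**
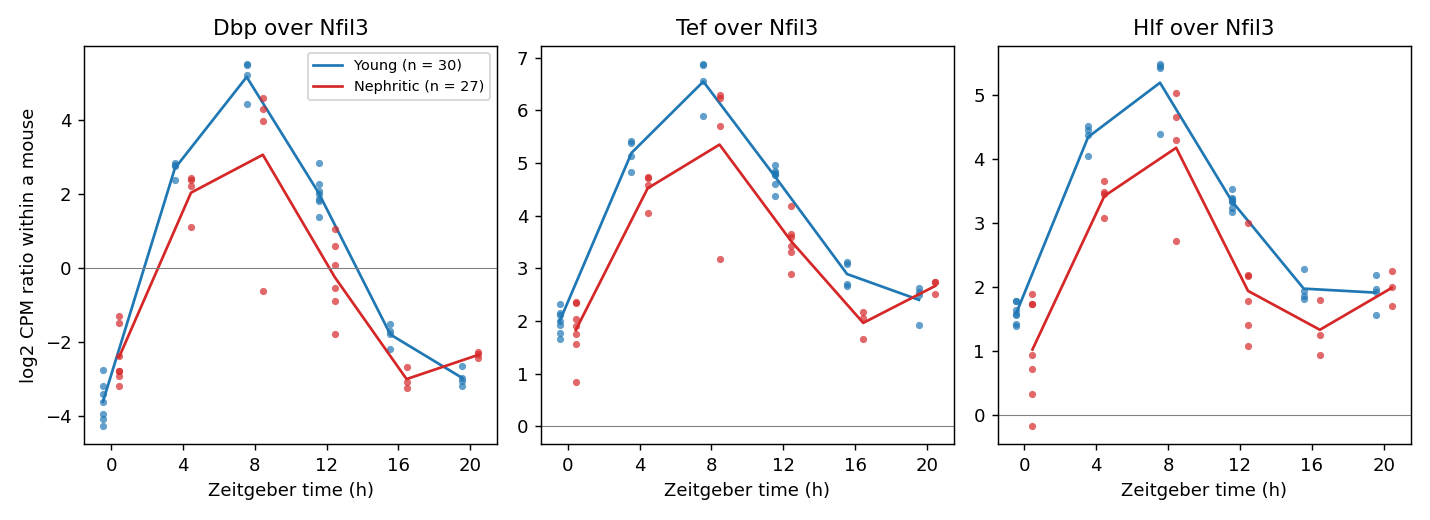
Log2 CPM ratio of each activator to Nfil3 within a mouse against Zeitgeber time (h), 1 point per mouse, with lines through the means of young and nephritic mice. At ZT12 every nephritic ratio lies below every young ratio for all 3 activators.

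At ZT0 and ZT12 alone, all 4 members differed between the time points in young mice, among 16.6% of 15504 genes. The log2 difference, ZT0 minus ZT12, was -4.54 for Dbp (SE 0.18), -1.66 for Tef (SE 0.08), -0.66 for Hlf (SE 0.07) and 1.08 for Nfil3 (SE 0.06). In nephritic mice it was -1.52 for Dbp (SE 0.30, adjusted p = 0.11), -0.90 for Tef (SE 0.28, adjusted p = 0.19), 0.03 for Hlf (SE 0.47) and 0.74 for Nfil3 (SE 0.19, adjusted p = 0.14). Only 0.0746% of genes, 12 in all, passed there in edgeR. DESeq2 called 594 genes in the same mice, with Dbp (adjusted p = 0.00035), Nfil3 (0.016) and Tef (0.040) among them.

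In remission mice Dbp was 15.5, 14.5, 8.73 and 6.92 CPM at ZT0 and 112, 74.5, 122 and 7.92 CPM at ZT12. The last of these, s9, lay among the ZT0 values, and in it Tef was 122 CPM, against 342 to 409.7 CPM in the other 3 mice at ZT12. With all 8 mice no gene passed between ZT0 and ZT12 in edgeR (0.00% of 14451 genes, 1449 at an unadjusted p under 0.05, and 24 in DESeq2), and the log2 difference of Dbp was -2.78 (SE 0.66, adjusted p = 0.49). The library s9 was set aside with its values known, so the values without it describe the other 7 mice and are no independent test. Without s9, 1.41% of genes passed, with Dbp at -3.15 (SE 0.28, adjusted p = 0.0051) and Tef at -1.30 (SE 0.15, adjusted p = 0.0099). Hlf (-0.79, adjusted p = 0.12) and Nfil3 (0.32, adjusted p = 0.46) did not pass. Nfil3 was 21.8, 22.3, 23.6 and 26.9 CPM at ZT0 and 21.5, 23.9, 12.1 and 26.8 CPM at ZT12, overlapping sets, with all 4 ZT0 values below the 38.1 to 48.4 CPM of young mice at ZT0.

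Against nephritic mice, which also enter the comparison with young mice, Dbp at ZT12 was higher in remission mice by a log2 difference of 1.95 (SE 0.47, adjusted p = 0.0077) with s9 included, where 17.4% of 16344 genes passed. Without s9 it was 2.32 (SE 0.34, adjusted p = 0.00028), where 13.9% passed. The 3 remaining mice, at 74.5 to 122 CPM, lay above every nephritic mouse and within the range of young mice at ZT12. At ZT0, however, every remission mouse held more Dbp than every young mouse. Every remission mouse at ZT12 held less Tef than every young mouse there. Remission and young mice were not tested against each other, and the share of all genes that separate them in this way was not counted. The same holds for Nfil3 at ZT0. Remission and young mice also differ in age, treatment and total counts. Tef, Hlf and Nfil3 passed at neither time point with or without s9. At ZT0, where 13.8% of genes passed, no member did, and the differences were 0.73 for Dbp (SE 0.47) and -0.59 for Nfil3 (SE 0.25, adjusted p = 0.12).

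Other genes of the clock were counted from lists by role. Of 9 genes driven through E-boxes, 6 were lower and 1 higher in level, where 62.1% of all genes differed and 33.9% were lower. All 9 varied over the day in young and 7 in nephritic mice, against 39.8% and 21.6% of all genes. Per2, Per3, Nr1d2, Ciart and Bhlhe41 differed in time course, as did 6.27% of all genes. Per3, a clock repressor, peaked at ZT10.6 in young and ZT8.40 in nephritic mice, a difference of -2.19 h (-3.85 to -0.54), and Nr1d2, which encodes REV-ERB beta, at ZT8.90 and ZT7.29, a difference of -1.62 h (-2.51 to -0.72). The amplitude of Ciart, another repressor of the clock, fell by 1.27 log2 units (interval of the change -1.85 to -0.68), and that of Per2 changed by -0.70 (-1.15 to -0.24). Bhlhe41 had a lower amplitude (-0.37, -0.64 to -0.11) with a peak difference whose interval included 0 (1.77 h, -0.29 to 3.83). Nr1d1, which encodes REV-ERB alpha, peaked at ZT6.37 in both groups and did not pass the test.

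Of 5 genes driven through ROREs, all 5 varied in both groups (39.8% of all genes in young and 21.6% in nephritic mice), and Arntl and Npas2 differed in time course (6.27% of all genes). Arntl, which encodes BMAL1, moved from ZT21.3 to ZT20.0 (-1.38 h, -2.46 to -0.31) and changed in amplitude by -1.15 (-1.65 to -0.64). Npas2, its partner, moved from ZT22.1 to ZT20.2 (-1.91 h, -3.02 to -0.80) with an amplitude change of -1.19 (-1.70 to -0.67). Cry1 and Clock of the same list did not pass the test of the time course, as Nfil3 did not. In the cosine fits the amplitude of Clock changed by -0.24 (-0.39 to -0.09) and that of Cry1 by -0.37 (-0.80 to 0.05).

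Of 11 genes described as targets of the PAR bZIP factors, 9 varied over the day in young and 4 in nephritic mice, against 39.8% and 21.6% of all genes. In level 9 were lower and none higher in nephritic mice (median log2 difference -0.49), where 33.9% of all genes were lower. At ZT12 8 of the 11 were lower and none higher (median -0.89), where 50.0% of all genes differed in either direction. At ZT0 4 were lower and 2 higher, at ZT4 2 lower and 1 higher, and at ZT16 4 lower. None passed at ZT8 or ZT20. Over all genes 39.5%, 30.3%, 17.7%, 3.66% and 5.48% differed at these time points, in the order named. The lower genes at ZT12 included Por, which encodes the electron donor of cytochromes P450, Alas1, the first enzyme of heme synthesis, and Ppara, a receptor of fatty acids. Nr1i3, Cyp2b10 and Cyp7a1 differed in time course (adjusted p of 0.029, 0.021 and 0.015), where 6.27% of all genes did. None of the 11 passed the test restricted to a cosine, which 0.691% of all genes passed. Cyp2b10 and Cyp7a1 were near 0, with young medians of 0.0944 and 0.112 CPM. They had no counts in 10 and 9 of the 30 young libraries. The highest values of Nr1i3 (20.6, 17.1 and 14.4 CPM) and of Cyp7a1 (11.2, 22.03 and 17.04 CPM) were in the same 3 young libraries, ZT8LU, ZT16RU and ZT16LL. Of 6 genes of the C/EBP family, bZIP factors that bind related elements, 3 were higher and 1 lower in level, where 62.1% of all genes differed, and none differed in time course, where 6.27% did.

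Over the 57 young and nephritic libraries Dbp and Nfil3 had a Pearson r of -0.85 on log2 CPM, as against 0.81 for Dbp and Tef, 0.79 for Tef and Hlf, 0.41 for Dbp and Hlf and -0.18 for Hlf and Nfil3. These are descriptions, since the points share time points and diagnosis. Among 14175 genes of at least 1 CPM on average, the 5 most like Dbp were Nr1d2 (0.91), Per3 (0.89), Ciart (0.85), Rsad1 (0.85) and Anxa7 (0.83). For Tef they were Per3 (0.91), Cpeb3 (0.91), Tns2 (0.90), Ciart (0.88) and Il15 (0.86). For Nfil3 they were Leo1 (0.85), Lnx2 (0.82), Tfec (0.80), Cdc25a (0.80) and Cry1 (0.79), and the 5 least like it were Dbp (-0.85), Amz1 (-0.83), Nr1d1 (-0.83), Nat8f4 (-0.81) and 4632428C04Rik (-0.75). No clock gene was among the 5 most like Hlf, which were Sord (0.96), Mcur1 (0.96), Kcnj15 (0.955), Ak4 (0.95) and Lin7a (0.95).

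Within nephritic mice Hlf and Tef were low where Lcn2, a marker of tubular injury, was high, after the means of time point and set were taken out. Of the 7 nephritic mice at ZT0, RX10LU, RX12RU and CRS60 held 392, 308 and 709.6 CPM of Lcn2 with 41.4, 39.5 and 34.8 CPM of Hlf. The 3 mice RX11LL, RX12LL and CRS6LL held 5.38, 7.30 and 8.95 CPM of Lcn2 with 147, 152 and 117 CPM of Hlf. CRS6LU lay between them, with 120 CPM of Lcn2 and 69.9 CPM of Hlf. Over the 27 mice the Pearson r of Hlf and Lcn2 was -0.84 and Spearman's rho -0.87 (permutation within time point and set, adjusted p over 8 relations of 0.00028 for both). For Tef and Lcn2 they were -0.81 and -0.86, with the same adjusted p. Without the 2 mice farthest from the median of Lcn2, r was -0.77 for both genes. RX10RU was not among these 2 mice, and its Tef residual of -1.23 was the lowest of the 27. Within Set 2 (n = 22) r was -0.90 for Hlf and -0.81 for Tef (permutation, adjusted p of 0.0015 and 0.0011). These relations were computed for the members alone, so how common such values are among all genes was not tested.

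Dbp and Nfil3 did not pass with Lcn2 (r = -0.15, permutation adjusted p = 0.61, and r = -0.11, permutation adjusted p = 0.70). Without the 2 mice farthest from the median of Lcn2, r was -0.28 for Dbp and 0.15 for Nfil3, and in Set 2 it was -0.29 and 0.03. For Dbp rho was -0.02 and for Nfil3 -0.11 (permutation, adjusted p of 0.92 and 0.80). With Ptprc, the leukocyte marker CD45, no member passed. The r of Tef was -0.48 and of Hlf -0.39 (permutation, adjusted p of 0.12 each), with rho of -0.33 and -0.24 (0.28 and 0.40), and r fell to -0.22 and -0.19 without the 2 mice farthest from the median. For Dbp and Nfil3 the r with Ptprc was -0.32 and -0.005 (permutation, adjusted p of 0.60 and 0.99).

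**Figure D5:**
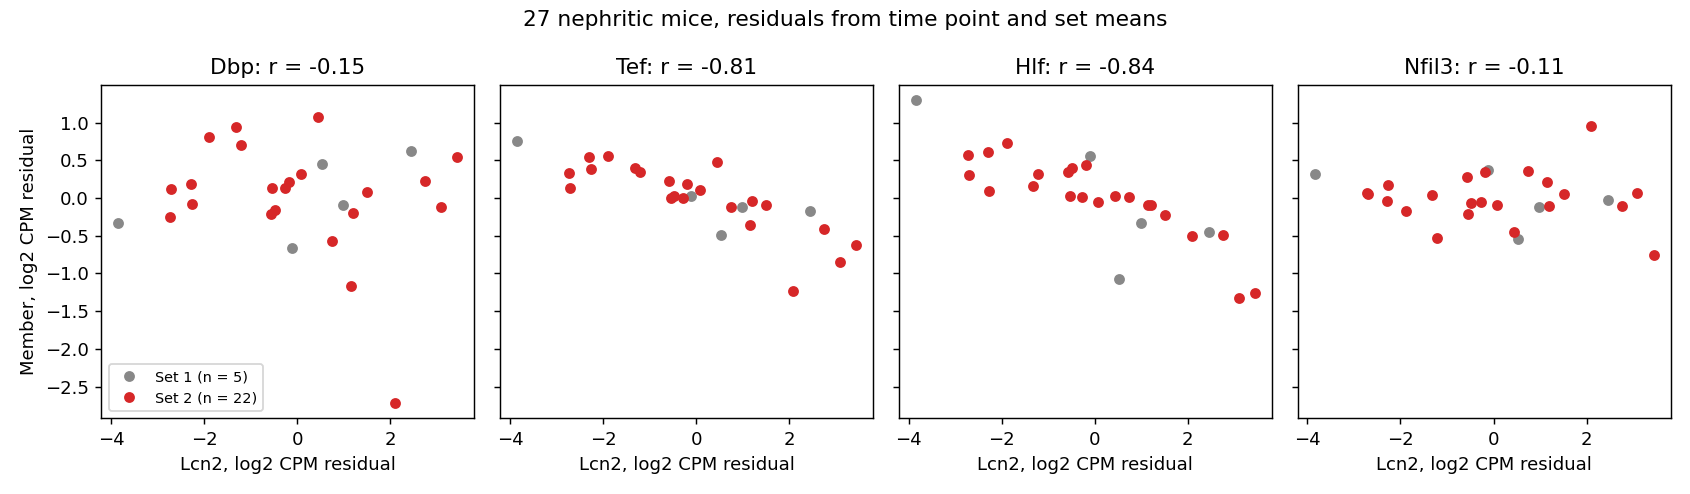
Log2 CPM of each member against that of Lcn2 in 27 nephritic mice, as residuals from the means of time point and sequencing set, 1 point per mouse. Hlf (r = -0.84) and Tef (r = -0.81) fall along the axis of Lcn2, and Dbp (r = -0.15) and Nfil3 (r = -0.11) do not line up with it.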

How the data were processed

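Kidney RNA was sequenced on a HiSeq with reads of 150 bp per the labels. The authors deposited read counts per gene symbol, without normalization, from reads aligned to mm10. The methods name the Burrows-Wheeler algorithm with counting of unique alignments, and the submitters' notes name HISAT. Of 24538 symbols, 15 with empty cells were left out. Sequencing set was inferred from title prefixes, whose numbers match the study's sample list. Set 1 held 6 young and 5 nephritic mice at ZT0 and ZT12.

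Genes with at least 100 counts over the libraries of a fit were tested with edgeR 4.0.16 in R 4.3.3. Set was a covariate in these fits, except within remission mice and between remission and nephritic mice, where there was none. The cosine used log2 CPM with a prior count of 2, with intervals by the delta method. Permutation tests used SciPy 1.17.1, with 100000 resamples for Lcn2 and Ptprc. The tests of time variation in young mice, of the time course and of level, and the young cosine, were checked on simulated counts. The simulation gave both groups the same spread, and the other tests were not checked in this way. Named genes were the members, the 5 most like each and least like Nfil3, and list genes past the test of the time course. Outside this rule, marker genes and Clock were named, and Por, Alas1, Ppara and individual mice after their values were seen. Results on 1 further gene are not reported here. The members and lists were chosen with earlier results of these data known. Alternatives were RLE factors, DESeq2 1.42.0, no filter, Set 2 alone, no set covariate, repeats, a 24 h cosine, a shared dispersion, a prior count of 0.5 and leaving out mice. Fits without RX10RU and RX11RU, alternatives at single time points and ratios in Set 2 were chosen after seeing the data, and leaving out s9 was chosen with earlier results known.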

Additional observations from a re-analysis of the deposited data

Results flagged for a closer look

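Dbp differed in time course between nephritic and young mice by the test of the diagnosis by time terms (edgeR, adjusted p = 0.00016). In 4 of 48 groups of a member, diagnosis and time point, 1 library lay far from the rest of its group by Dixon's test, which chance does in about 1 in 20 groups. The nephritic ZT8 library RX10RU was lowest for Dbp, at 10.04 CPM against 108 to 139 CPM, and for Tef, at 138 CPM against 413.5 to 454 CPM. The remission ZT12 library s9 was lowest for Tef, at 122 CPM against 342 to 409.7 CPM. The young ZT4 library ZT40 was highest for Dbp, at 51.8 CPM against 48.8 to 49.2 CPM, in a group with a small spread.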

How the results depend on the processing

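No paired analysis was possible because the labels give no replicate numbers that pair mice across groups. Of 446 values under other settings, 419 were counted as unchanged, as were 3976 of 4070 values with 1 mouse left out. For tests this means the same side of the threshold and, where there was one, the same direction. For cosine values, which have no threshold, it means a shift no larger than the SE of the main value. A wide SE lets large shifts count as unchanged. The nephritic Hlf peak, with an SE of 5.68 h, ranged from ZT3.72 to ZT10.3 with each mouse left out. Cosine values of 1 group were also counted when a mouse of the other group was left out, where they could not change. The counts therefore do not measure how stable the results are. The cause of the changes was not tested. Dbp at ZT8 no longer passed without a filter on low counts (-1.18, adjusted p = 0.054), with Set 2 alone (-1.18, 0.050), without the set covariate (-1.20, 0.052), with repeats (-1.20, 0.067) or without RX10RU and RX11RU (-0.83, 0.21), and neither did Dbp at ZT0 with Set 2 alone (0.94, 0.076). Hlf at ZT0 no longer passed with RLE factors (-0.60, 0.054), no filter (-0.60, 0.068), Set 2 alone (-0.47, 0.15), no set covariate (-0.60, 0.066) or repeats (-0.61, 0.053), nor did Hlf at ZT12 with Set 2 alone (-0.47, 0.16) or Hlf over the day in young mice with a shared dispersion (0.19). Tef over the day in nephritic mice was lost with the cosine (0.099), and its difference in time course passed in DESeq2 (0.018) and without RX10RU and RX11RU (0.019). Between ZT0 and ZT12 in nephritic mice DESeq2 called Dbp (-1.54), Tef (-0.91) and Nfil3 (0.73), and in remission mice without s9 edgeR called Dbp (-3.15) and Tef (-1.30). The range of time point means, in place of the cosine, gave an amplitude of 1.395 for Nfil3 in young mice against 1.57. The amplitude of Hlf in young mice also moved by more than its SE. Its cosine amplitude was 0.35 (SE 0.038), and its time point means spanned 0.80 log2 units from lowest to highest. The level of Nfil3 turned from 0.06 to -0.0243 without RX10RU and RX11RU, neither past the threshold.

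With each mouse left out in turn, Dbp ranged from -0.62 to -0.47 in level, from -1.41 to -0.79 at ZT8, from -1.53 to -1.31 at ZT16 and from -0.22 to 0.08 at ZT4, and from -3.15 to -2.50 (-2.495) between ZT0 and ZT12 in remission. Hlf ranged from -0.78 to -0.47 at ZT0, from -0.28 to 0.00912 at ZT20 and from -0.27 to 0.25 between ZT0 and ZT12 in nephritic mice. Nfil3 ranged from -0.0262 to 0.32 between ZT0 and ZT12 in remission and from -0.32 to 0.0227 in remission against nephritic mice at ZT12. Tef ranged from -1.32 to -0.90 at ZT16, from -0.00399 to 0.13 at ZT20 and from -1.30 to -0.89 between ZT0 and ZT12 in remission, its adjusted p from 0.021 to 0.091 for the difference in time course and from 0.0057 to 0.055 over the day in nephritic mice.

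Over all genes, the 1099 that differed in time course became 2186 in DESeq2, 1715 with Set 2 alone, 693 with repeats, 121 with the cosine and 1740 without RX10RU and RX11RU. The 8757 at ZT12 became 5080 with Set 2 alone, and the 641 at ZT8 became 966 with Set 2 alone and 146 without RX10RU and RX11RU. The 3646 that varied in nephritic mice became 5646 in DESeq2, 1994 without the set covariate and 362 with the cosine, and the 6583 in young mice 3721 with a shared dispersion. The 3 or 4 mice of most time points limit the precision, and p-values set a difference or relation against the spread between mice.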
